A study of Homo sapiens with 12 samples.

Results

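Expression of the aminoacyl-tRNA synthetase genes was examined in an RNA sequencing table of 26475 gene symbols, of which 37 were chosen by name as synthetases. The list holds 20 cytosolic genes and 17 genes whose symbol ends in 2, and it uses older symbols, such as AARS for the gene now called AARS1. PA-1 is a human ovarian teratocarcinoma cell line and SK-OV-3 a human ovarian adenocarcinoma cell line. Cells of each line received either the vehicle DMSO or 5 µM BAY-850, a small-molecule inhibitor of ATAD2 that keeps this bromodomain protein from acetylated histones, and treated cells were collected after 48 h. Each of the 4 groups (PA-1 with DMSO, PA-1 with BAY-850, SK-OV-3 with DMSO and SK-OV-3 with BAY-850) is represented by 3 libraries that the study describes as biological replicates. The labels name no engineered allele, the study gives p53 as deleted in SK-OV-3 and as mutated in PA-1, and both lines were grown with fetal bovine serum and antibiotics. PA-1 was kept in DMEM and SK-OV-3 in RPMI, so the line and the medium cannot be told apart in any comparison between lines.

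Aminoacyl-tRNA synthetases attach each amino acid to its matching tRNA, which is the step that gives the genetic code its meaning. The cytosolic enzymes supply the ribosomes that make most cellular protein, and 8 of them (EPRS, IARS, LARS, MARS, QARS, KARS, RARS and DARS) sit in a large multisynthetase complex. The mitochondrial enzymes are encoded in the nucleus, are imported and serve the translation of the few proteins encoded by mitochondrial DNA. GARS and KARS each encode the cytosolic and the mitochondrial enzyme from 1 gene, while TARSL2 (now TARS3) has a symbol that ends in 2 but encodes a cytosolic threonyl-tRNA synthetase. FARSA and FARSB encode the alpha and beta subunits of the cytosolic phenylalanyl enzyme. Cells that lack amino acids raise the translation of the transcription factor ATF4, which drives genes of amino acid supply and is known to act on several cytosolic synthetase genes.

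Total expected counts per library ranged from 34544505 to 51840233, and all 37 synthetase genes passed the filter on low counts in every comparison. SK-OV-3 with BAY-850 replicate 3 stood apart, with at least 1 count in 15634 genes, against 17437 to 18440 in the other libraries, and results that change without it are given both ways. Levels below are CPM, that is counts scaled to library size, after 1 TMM scaling of all 12 libraries. The 5 markers of PA-1 summed to between 1099 and 1280 CPM in PA-1 with DMSO and to between 6.48 and 7.99 CPM in SK-OV-3 with DMSO. In PA-1 with DMSO, LIN28A (756 CPM) and POU5F1 (409 CPM) made up most of that sum. SALL4 measured 21.4 CPM there, while DPPA4 (1.80 CPM) and L1TD1 (0.45 CPM) were nearly absent. The 7 markers of SK-OV-3 summed to between 929 and 984 CPM in PA-1 with DMSO and to between 3653 and 4016 CPM in SK-OV-3 with DMSO. Yet 2 of the 7 were higher in PA-1 with DMSO than in SK-OV-3 with DMSO, KRT18 (335 against 266 CPM) and WT1 (4.39 against 2.04 CPM). Of 4 markers of other cells, the leukocyte genes PTPRC and CD3E did not pass the filter in any comparison. The list summed to between 448 and 557 CPM in PA-1 with DMSO and between 588 and 639 CPM under BAY-850, and to between 167 and 175 CPM in SK-OV-3 with DMSO and between 84.6 and 112 CPM under BAY-850. Most of each sum was COL1A1, which rose with BAY-850 in PA-1 and fell in SK-OV-3. In SK-OV-3 treated with BAY-850, 5 of the 7 markers of that line fell, so that their sum lay between 2523 and 2956 CPM, and the part of these shifts in the results on the synthetases was not tested.

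To ask whether cytosolic and mitochondrial synthetases respond alike to BAY-850, each treated group was compared with DMSO in its own line. In SK-OV-3 cells 8 cytosolic genes rose: AARS, CARS, SARS, GARS, YARS, WARS, TARS and MARS, by 1.33-fold to 1.99-fold. A further 2 of the 20 cytosolic genes, HARS and VARS, fell, and 2 of the 17 genes whose symbol ends in 2, CARS2 and PARS2, rose. Of all genes tested in SK-OV-3, 10.8% rose and 9.56% fell, so these last 2 counts were near the shares of all genes. In PA-1 cells no cytosolic gene passed the same test, VARS2 rose and NARS2 fell. Of all genes tested there, 4.65% rose and 2.48% fell. In bulk RNA, less RNA per cell and fewer cells with that RNA cannot be told apart.

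**Figure D1:**
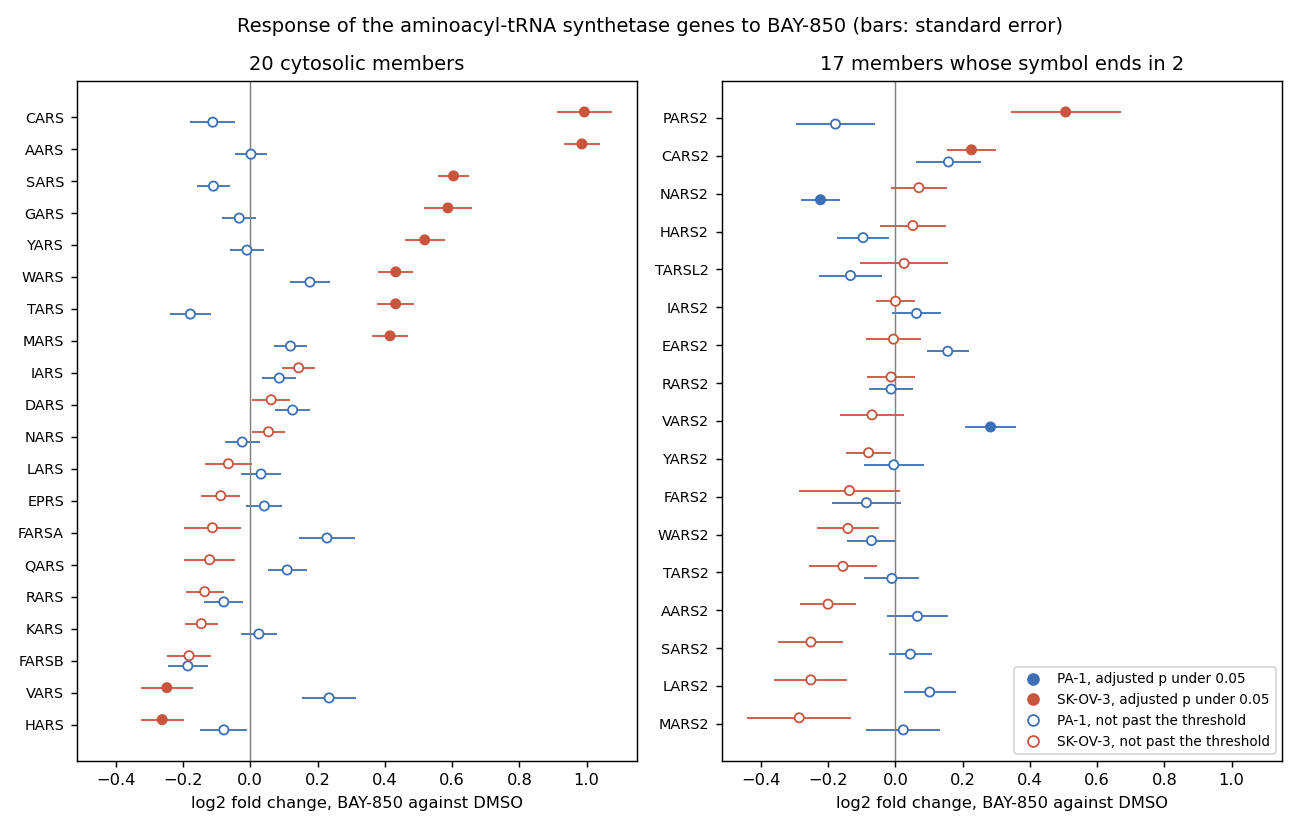
Log2 fold change of BAY-850 against DMSO for each synthetase gene (x axis) in PA-1 (blue) and SK-OV-3 (red), with the cytosolic genes on the left and the genes whose symbol ends in 2 on the right. Bars are standard errors from edgeR's quasi-likelihood fit of 3 libraries per group, and filled points have an adjusted p under 0.05. The 8 filled red points from 0.42 to 0.99 on the left are the cytosolic genes that rose in SK-OV-3.

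AARS, which charges alanine, measured 137, 140 and 140 CPM in the SK-OV-3 libraries with DMSO and 277, 288 and 252 CPM in those with BAY-850. Every treated library lay far above every control library, and the log2 fold change was 0.99 ± 0.05 (SE, n = 3 per group, edgeR quasi-likelihood adjusted p = 3.87e-07). In PA-1 the same gene measured 631, 613 and 638 CPM with DMSO and 629, 634 and 618 CPM under BAY-850, so the groups overlapped.

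CARS, the cysteinyl enzyme, measured 32.0, 38.7 and 32.9 CPM with DMSO and 71.2, 68.4 and 64.6 CPM under BAY-850 in SK-OV-3, a log2 fold change of 0.99 ± 0.08 (SE, edgeR adjusted p = 1.05e-05). Its PA-1 libraries measured 189, 191 and 166 CPM with DMSO and 179, 168 and 158 CPM under BAY-850. Those PA-1 ranges overlapped, and the treated SK-OV-3 libraries lay below all 6 PA-1 libraries. SARS, the seryl enzyme, measured 226, 220 and 218 CPM with DMSO and 332, 341 and 328 CPM under BAY-850 in SK-OV-3, a log2 fold change of 0.60 ± 0.05 (SE, edgeR adjusted p = 5.26e-06). In PA-1 it measured 695, 681 and 665 CPM with DMSO and 653, 620 and 615 CPM under BAY-850, all treated libraries lying below the controls, although the edgeR adjusted p there was 0.199. SARS was the only synthetase gene whose 3 treated libraries all lay above DMSO in 1 line and all below DMSO in the other.

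GARS, the glycyl enzyme of both compartments, measured 75.5, 81.6 and 79.5 CPM with DMSO and 110, 115 and 127 CPM under BAY-850 in SK-OV-3, a log2 fold change of 0.59 ± 0.07 (SE, edgeR adjusted p = 0.000182). YARS, the tyrosyl enzyme, measured 132, 128 and 125 CPM with DMSO and 190, 192 and 166 CPM under BAY-850, a log2 fold change of 0.52 ± 0.06 (SE, edgeR adjusted p = 0.00012). Neither gene's groups overlapped in SK-OV-3, whereas both overlapped in PA-1. There GARS measured 587, 601 and 564 CPM with DMSO and 569, 588 and 554 CPM under BAY-850, and YARS measured 442, 434 and 467 CPM with DMSO and 440, 452 and 440 CPM under BAY-850.

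WARS, the tryptophanyl enzyme, measured 114, 109 and 109 CPM with DMSO and 144, 152 and 148 CPM under BAY-850 in SK-OV-3, a log2 fold change of 0.43 ± 0.05 (SE, edgeR adjusted p = 0.000187). TARS, the threonyl enzyme, measured 169, 177 and 171 CPM with DMSO and 223, 229 and 239 CPM under BAY-850, a log2 fold change of 0.43 ± 0.05 (SE, edgeR adjusted p = 0.00023). MARS, the methionyl enzyme, measured 91.8, 89.8 and 94.4 CPM with DMSO and 124, 120 and 122 CPM under BAY-850, a log2 fold change of 0.42 ± 0.05 (SE, edgeR adjusted p = 0.000262). In each of these 3 genes the treated SK-OV-3 libraries lay above all controls. The PA-1 libraries went different ways. WARS measured 188, 201 and 217 CPM there with DMSO and 228, 230 and 228 CPM under BAY-850, and MARS measured 393, 379 and 388 CPM and then 420, 430 and 408 CPM, both without overlap, at edgeR adjusted p of 0.0868 and 0.163. TARS in PA-1 measured 269, 278 and 248 CPM with DMSO and 249, 229 and 224 CPM under BAY-850, with overlap and an edgeR adjusted p of 0.091. The 8 genes were called higher in SK-OV-3 in the reported fit and in each of 17 other settings, which include leaving out SK-OV-3 with BAY-850 replicate 3.

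**Figure D2:**
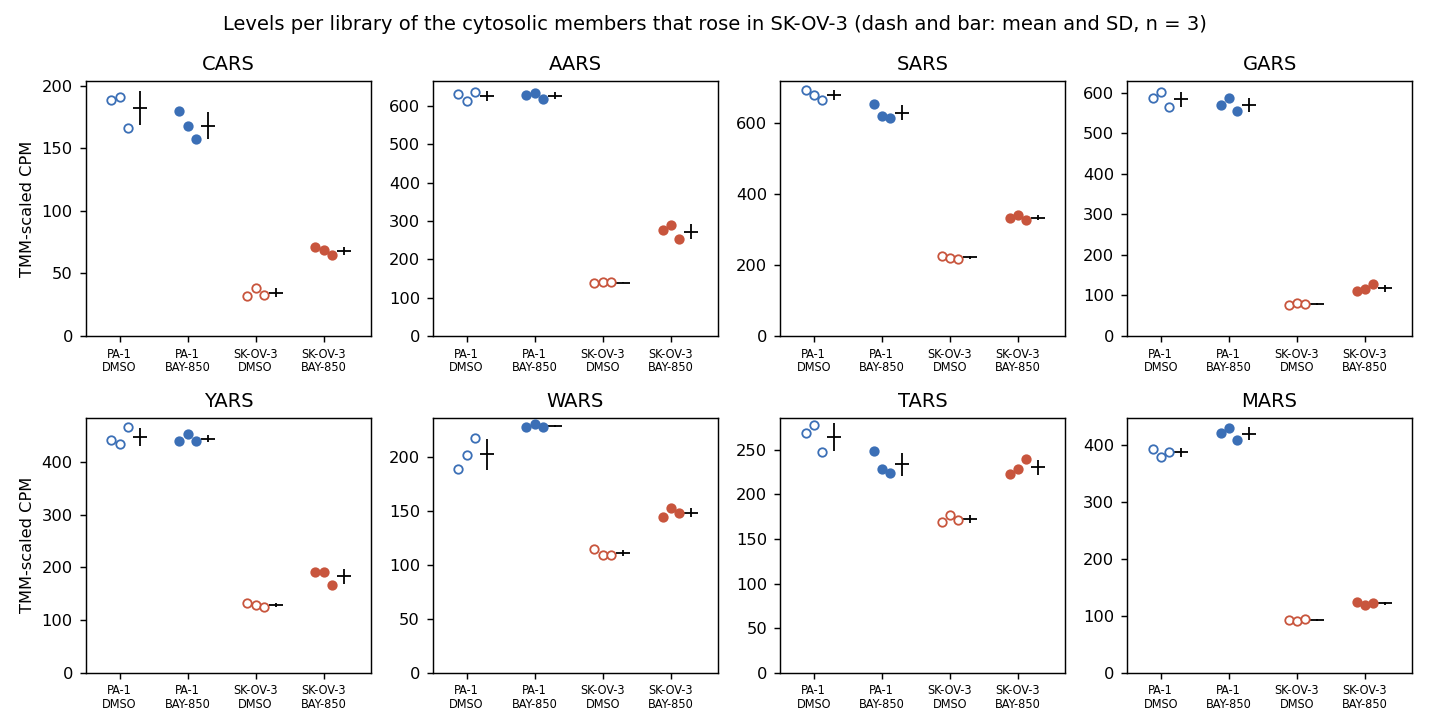
Level in TMM-scaled CPM (y axis, from 0) of the 8 cytosolic genes that rose in SK-OV-3, in each library of the 4 groups (x axis, 3 points each). Open points are DMSO, filled points BAY-850, blue PA-1 and red SK-OV-3, and the dash with its bar is the mean ± SD. In every panel the filled red points lie above the open red ones and below the open blue ones, for AARS between 252 and 288 CPM against 613 to 638 CPM.

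The 8 of 20 cytosolic genes that rose compare with 10.8% of all genes tested in SK-OV-3, and the 2 of 20 that fell with 9.56%. Without overlap between the groups, 10 of 20 were higher and 6 of 20 lower, against 18.1% and 20.5% of all genes tested. The median log2 fold change was 0.058 over the cytosolic genes and -0.009 over all genes tested. The 12 cytosolic genes that were not called higher are what is left once the risen genes of these same libraries are taken out, which by itself lowers their median. Of these 12, 9 had a negative log2 fold change and 3 a positive one, with a median of -0.12. No such removal was made for the median over all genes tested. IARS, the isoleucyl enzyme, came closest among these, with 156, 164 and 167 CPM with DMSO and 181, 177 and 175 CPM under BAY-850 in SK-OV-3 (log2 fold change 0.14, edgeR adjusted p = 0.0647). It was called higher in 2 of 17 other settings, by DESeq2 (adjusted p = 0.0274) and with the GC trend removed (edgeR adjusted p = 0.0159). NARS, the asparaginyl enzyme, measured 201, 202 and 195 CPM with DMSO and 206, 205 and 205 CPM under BAY-850, and its log2 fold change of 0.05 did not pass the test (edgeR adjusted p = 0.471). The remaining 8 cytosolic genes that did not pass (DARS, LARS, EPRS, FARSA, QARS, RARS, KARS and FARSB) had log2 fold changes from -0.18 to 0.06.

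The cytosolic genes were also split by membership of the multisynthetase complex, a split chosen after their values had been seen. In SK-OV-3, 1 of 8 complex subunits rose (MARS), near the 10.8% of all genes tested. Of the 12 other cytosolic genes 7 rose. The median log2 fold change was -0.08 over the subunits and 0.43 over the others. KARS, the lysyl enzyme of both compartments and a complex subunit, measured 213, 205 and 204 CPM with DMSO and 184, 186 and 187 CPM under BAY-850. Its groups did not overlap, with a log2 fold change of -0.15 and an edgeR adjusted p of 0.0608. It was called lower in 3 of 17 other settings, by DESeq2 (adjusted p = 0.0196), with all 12 libraries in one fit (edgeR adjusted p = 0.0227) and without the library that stood apart (0.0348). The scaffold genes AIMP1 and AIMP2 and the complex component EEF1E1 did not pass the test in SK-OV-3 either, with log2 fold changes of 0.01, -0.17 and 0.19.

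HARS, the histidyl enzyme, measured 72.0, 67.1 and 66.7 CPM with DMSO and 56.1, 55.9 and 57.9 CPM under BAY-850 in SK-OV-3, a log2 fold change of -0.26 ± 0.06 (SE, edgeR adjusted p = 0.0138). VARS, the valyl enzyme, measured 138, 130 and 134 CPM with DMSO and 122, 119 and 95.8 CPM under BAY-850, a log2 fold change of -0.25 ± 0.08 (SE, edgeR adjusted p = 0.0409). Neither gene's groups overlapped, and the lowest value of VARS came from the library that stood apart. Without that library the edgeR adjusted p was 0.0058 for HARS and 0.0537 for VARS, whose log2 fold change was then -0.16, and FARSB, KARS and QARS then passed at 0.0345, 0.0348 and 0.0498, so that 4 cytosolic genes were called lower. The call of HARS was lost without SK-OV-3 DMSO replicate 2 (0.0506) or without BAY-850 replicate 1 or replicate 2 (0.0553 and 0.0632). That of VARS was also lost without any 1 of the 3 DMSO libraries (0.1 to 0.112) or without BAY-850 replicate 2 (0.0581). HARS and HARS2 lie head to head on chromosome 5 (GRCh38, HARS from 140673904 to 140691862 on the minus strand and HARS2 from 140691426 to 140699318 on the plus strand), so that their gene bodies overlap. The library protocol marks strand, but how strand was used in counting is not given in the sources used here.

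Of the 17 genes whose symbol ends in 2, 2 rose in SK-OV-3 and none fell by edgeR's quasi-likelihood test, against 10.8% and 9.56% of all genes tested. DESeq2 and limma-voom called 0 lower as well. By edgeR 5 of the 17 had an unadjusted p under 0.05, as had 5116 of all 15348 genes tested. Their median log2 fold change was -0.07, and it stayed at -0.07 without TARSL2. CARS2, the mitochondrial cysteinyl enzyme, measured 44.8, 39.9 and 40.9 CPM with DMSO and 47.0, 50.7 and 48.1 CPM under BAY-850, a log2 fold change of 0.23 ± 0.07 (SE, edgeR adjusted p = 0.0478). PARS2, the mitochondrial prolyl enzyme, measured 5.61, 4.44 and 5.36 CPM with DMSO and 6.96, 7.25 and 7.48 CPM under BAY-850, a log2 fold change of 0.51 ± 0.16 (SE, edgeR adjusted p = 0.0493). Both genes were higher in every treated library, but both lay next to the threshold and passed it in 8 and 5 of 17 other settings. CARS2 lost its call without DMSO replicate 2 (edgeR adjusted p = 0.193) or replicate 3 (0.153) and without BAY-850 replicate 1 (0.0718) or replicate 2 (0.156). PARS2 lost its call without any 1 of the 3 DMSO libraries (0.0608 to 0.186) and without BAY-850 replicate 1 (0.0864) or replicate 2 (0.107), while without BAY-850 replicate 3 both genes passed. SARS2, AARS2 and LARS2, for serine, alanine and leucine, were lower in every treated library without passing the test, with log2 fold changes of -0.25, -0.20 and -0.25. Without overlap, 2 of 17 were thus higher and 3 of 17 lower, against 18.1% and 20.5% of all genes tested. SARS2 was called lower in 3 of 17 other settings (lowest edgeR adjusted p = 0.0186), AARS2 in 1 (0.0371) and LARS2 in 0. The other 12 genes of this class (MARS2, TARS2, WARS2, FARS2, YARS2, VARS2, RARS2, EARS2, IARS2, TARSL2, HARS2 and NARS2) had overlapping groups and log2 fold changes from -0.29 to 0.07.

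Enzymes for the same amino acid were set side by side in 17 pairs of a cytosolic and a mitochondrial gene. FARS2 was paired with both FARSA and FARSB, and EPRS, the enzyme for glutamate and proline, with both EARS2 and PARS2. In SK-OV-3 the ratio of the cytosolic to the mitochondrial gene was higher in all 3 treated libraries than in all 3 controls for 8 pairs (alanine, cysteine, isoleucine, methionine, serine, threonine, tryptophan and tyrosine). It was lower without overlap for 4 pairs (histidine, arginine, valine and proline), and the other 5 pairs overlapped. Over all 340 combinations of a cytosolic gene with a gene whose symbol ends in 2, whatever their amino acids, 42.1% of ratios were higher and 11.8% lower without overlap, so the share of higher ratios among the pairs was near that of all combinations. The mean log2 ratio moved by 1.19 for AARS over AARS2, by 0.86 for SARS over SARS2, and by 0.77 for CARS over CARS2, the pair in which both genes rose. It moved by -0.60 for EPRS over PARS2, the pair with the largest change among the 4 that were lower. In PA-1 the ratio was higher without overlap for 3 of 17 pairs, NARS over NARS2 (0.20), WARS over WARS2 (0.25) and EPRS over PARS2 (0.23), and lower for 0, against 14.7% and 12.4% of all combinations. An exact permutation test of 3 libraries against 3 cannot give a two-sided p below 0.1, so no p is given for single ratios.

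**Figure D3:**
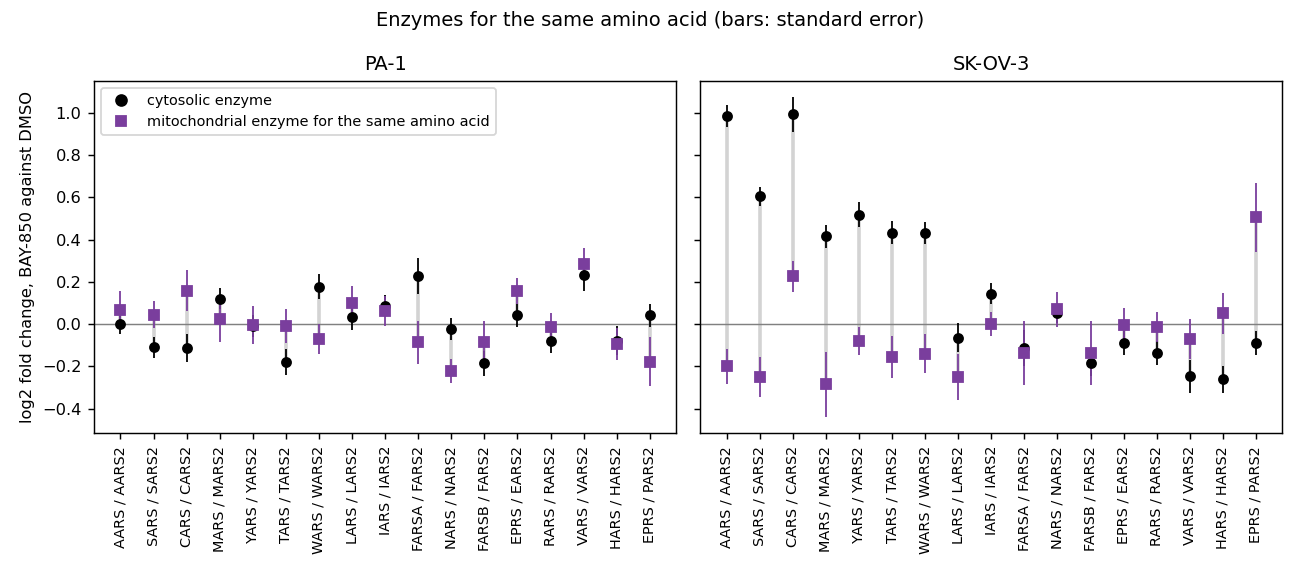
Log2 fold change of BAY-850 against DMSO (y axis) for the cytosolic gene (black circle) and the mitochondrial gene (purple square) of each amino acid (x axis), in PA-1 on the left and SK-OV-3 on the right. Bars are standard errors from edgeR's fit with 3 libraries per group, and grey lines join the genes of a pair. In SK-OV-3 the line of the alanine pair spans from -0.20 for AARS2 to 0.99 for AARS.

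In PA-1, 0 of 20 cytosolic genes rose and 0 fell by edgeR's quasi-likelihood test, against 4.65% and 2.48% of all genes tested. By edgeR 8 of the 20 had an unadjusted p under 0.05, as had 3618 of all 15212 genes tested. DESeq2 called 2 higher (VARS and WARS) and 2 lower (FARSB and TARS), and limma-voom called 0. Leaving out PA-1 DMSO replicate 3 gave 3 higher calls and 1 lower call (VARS, WARS and FARSA higher at edgeR adjusted p of 0.021, 0.0367 and 0.0427, FARSB lower at 0.0472). Their log2 fold changes ran from -0.19 to 0.23 with a median of 0.014, and the groups did not overlap for 4 higher genes (WARS, DARS, MARS and IARS) and 2 lower genes (FARSB and SARS), against 14.1% and 13.3% of all genes tested. Of the 17 genes whose symbol ends in 2, 1 rose and 1 fell in PA-1, against 4.65% and 2.48% of all genes tested. Without overlap 2 were higher and 1 lower, against 14.1% and 13.3%. EARS2 was higher in every treated library without passing (edgeR adjusted p = 0.139). The 15 genes not called had log2 fold changes from -0.18 to 0.16. VARS2, the mitochondrial valyl enzyme, measured 28.7, 25.2 and 26.3 CPM with DMSO and 32.0, 34.4 and 30.9 CPM under BAY-850, a log2 fold change of 0.28 ± 0.08 (SE, edgeR adjusted p = 0.0373). NARS2, the mitochondrial asparaginyl enzyme, measured 67.8, 71.6 and 68.3 CPM with DMSO and 60.4, 59.5 and 58.0 CPM under BAY-850, a log2 fold change of -0.22 ± 0.06 (SE, edgeR adjusted p = 0.0332). Both genes were separated in every library. The GC content of the transcript was 60.2% for VARS2 and 43.9% for NARS2, and with each library's trend on GC content removed neither passed (edgeR adjusted p of 0.167 and 0.0844). Leaving out any 1 of the 6 libraries ended the call of NARS2 (0.051 to 0.144), and VARS2 lost its call without DMSO replicate 2 or replicate 3 (0.166 and 0.0818) or BAY-850 replicate 1 or replicate 2 (0.0864 and 0.196).

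Whether the response differed between the lines was tested with the product of line and treatment in 1 fit of all 12 libraries. The difference, SK-OV-3 minus PA-1 on the log2 scale, was positive and past the threshold for 8 of 20 cytosolic genes and negative for 1, against 6.70% and 7.77% of all genes tested. The 8 are the same genes that rose in SK-OV-3. The difference was 1.09 ± 0.11 for CARS (SE, edgeR adjusted p = 1.24e-05), 0.97 ± 0.07 for AARS (3.34e-07), 0.70 ± 0.06 for SARS (2.51e-06) and 0.61 ± 0.08 for GARS (0.000117). It was 0.60 ± 0.08 for TARS (edgeR adjusted p = 0.000138), 0.52 ± 0.08 for YARS (0.000493), 0.28 ± 0.06 for MARS (0.00632) and 0.24 ± 0.08 for WARS (0.0424). All of these but WARS also passed in each of 20 other settings. WARS, which was also higher in every treated PA-1 library, passed in 8 of the 20. Among these it passed without PA-1 DMSO replicate 1, SK-OV-3 DMSO replicate 1 or SK-OV-3 BAY-850 replicate 1, and leaving out any of the other 9 libraries ended its call (edgeR adjusted p of 0.0516 to 0.0914). Without the library that stood apart, 7 cytosolic genes had a positive difference and 2 a negative one (VARS at 0.0247 and QARS at 0.0216).

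The valyl enzyme VARS had the opposite difference of -0.49 ± 0.13 (SE, edgeR adjusted p = 0.0193). Its PA-1 libraries measured 109, 100 and 125 CPM with DMSO and 120, 135 and 138 CPM under BAY-850, overlapping but mostly higher, while its treated SK-OV-3 libraries were all lower. The call was lost without PA-1 BAY-850 replicate 2 (edgeR adjusted p = 0.0512) and without PA-1 DMSO replicate 2 (0.0573). Among the 17 genes whose symbol ends in 2, PARS2 had a positive difference of 0.67 ± 0.20 (SE, edgeR adjusted p = 0.035), with 12.8, 14.1 and 13.1 CPM in PA-1 with DMSO and 13.2, 10.1 and 12 CPM under BAY-850. The PA-1 groups of PARS2 overlapped. PARS2 passed without PA-1 BAY-850 replicate 1, SK-OV-3 DMSO replicate 1 or SK-OV-3 BAY-850 replicate 1 or replicate 3. Leaving out any of the other 8 libraries ended its call (edgeR adjusted p of 0.0525 to 0.0976). Without SK-OV-3 BAY-850 replicate 3, the library that stood apart, NARS2 was called as well, giving 2 positive differences in this class. No gene of this class had a negative difference past the threshold by edgeR's test, while DESeq2 called 1 (VARS2). By edgeR 6 of 17 had an unadjusted p under 0.05, as had 4751 of all 16830 genes tested.

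The lines also differed before treatment. With DMSO, 14 of 20 cytosolic genes were lower in SK-OV-3 than in PA-1 and 3 (HARS, RARS and VARS) were higher, against 40.2% and 40.1% of all genes tested. The median log2 difference was -1.19 over the cytosolic genes and -0.26 over the genes whose symbol ends in 2, of which 10 were lower and 5 higher. All 8 cytosolic genes that rose with BAY-850 started lower in SK-OV-3, by log2 differences of -2.89 for GARS, -2.40 for CARS, -2.18 for AARS, -2.07 for MARS, -1.80 for YARS, -1.62 for SARS, -0.87 for WARS and -0.62 for TARS. IARS, which did not pass the test for treatment, was lower by the same size as MARS (-2.08). The 5 mitochondrial genes that were higher in SK-OV-3 were YARS2 (1.63), CARS2 (1.28), AARS2 (0.74), HARS2 (0.31) and RARS2 (0.24). With BAY-850 all 8 risen genes of SK-OV-3 remained below every PA-1 library with DMSO, a relation that 40.8% of all genes tested showed. It also held for 8 of the 12 other cytosolic genes and for 11 of the 17 genes whose symbol ends in 2, so it was not particular to the risen genes.

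Levels of different genes were compared per kilobase of transcript. With DMSO the medians over the cytosolic genes were 72.5 CPM per kilobase in PA-1 and 35.4 in SK-OV-3, and those over the genes whose symbol ends in 2 were 9.80 and 9.07. SARS had the highest level in both lines, at 367 ± 8.18 CPM per kilobase (SD, n = 3) in PA-1 and 120 ± 2.38 in SK-OV-3. GARS was next in PA-1, at 222 ± 6.96, and KARS in SK-OV-3, at 103 ± 2.55, and neither range reached that of SARS. HARS was the lowest cytosolic gene in PA-1 (17.1 ± 0.763) and CARS in SK-OV-3 (12.8 ± 1.36). Among the genes whose symbol ends in 2, IARS2 was highest in PA-1 (48.2 ± 3.52) and YARS2 in SK-OV-3 (37.5 ± 2.51), where the ranges of YARS2 (34.7 to 39.2) and IARS2 (32.6 to 37.0) overlapped. The lowest were MARS2 in PA-1 (3.90 ± 0.303) and PARS2 in SK-OV-3 (2.19 ± 0.262), below MARS2 at 2.83 ± 0.318. The ranges of PARS2 and MARS2 in SK-OV-3 did not overlap.

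**Figure D4:**
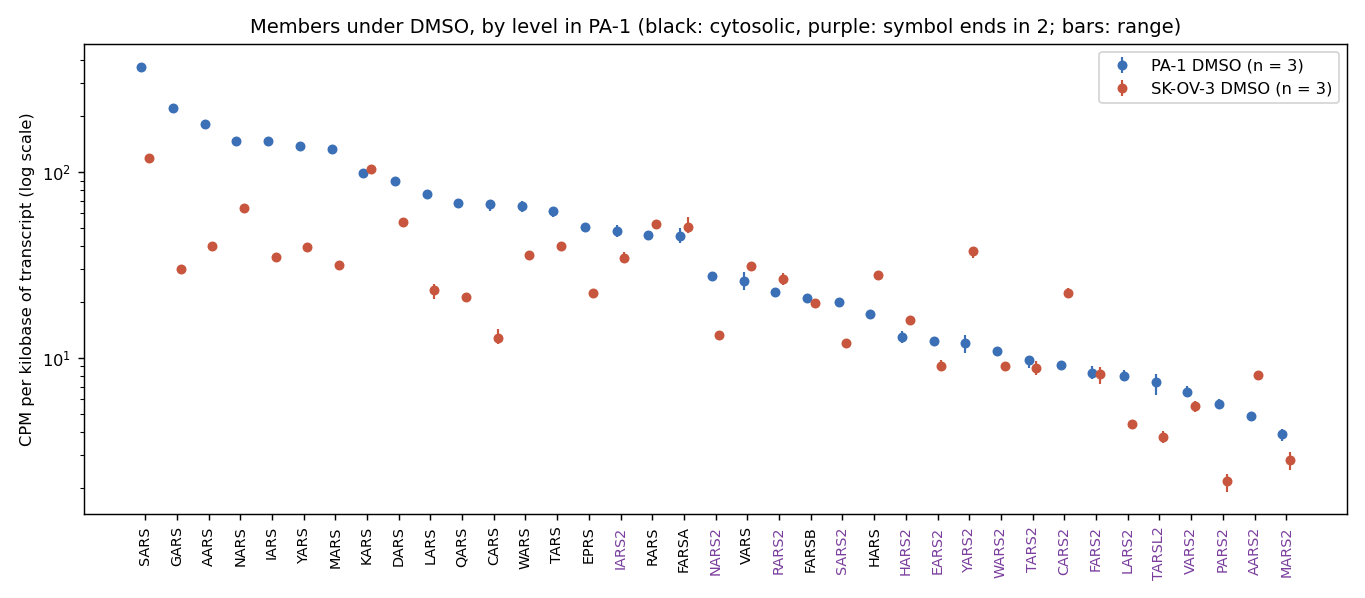
Level with DMSO in CPM per kilobase of transcript (y axis, log scale) of each synthetase gene (x axis, in order of its level in PA-1), in PA-1 (blue) and SK-OV-3 (red). Points are means of 3 libraries, bars run from the lowest to the highest library, black names are cytosolic genes and purple names are genes whose symbol ends in 2. GARS falls from 222 in PA-1 to 29.9 in SK-OV-3, while YARS2 goes from 12.1 to 37.5.

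Summed over the class, the cytosolic genes took 6143 ± 9.56 CPM (SD, n = 3) in PA-1 with DMSO and 6192 ± 98.7 CPM under BAY-850, with overlapping libraries. In SK-OV-3 the sum was 2433 ± 12.7 CPM with DMSO and 2854 ± 50.4 CPM under BAY-850, every treated library lying above every control. The 8 genes that rose, a group formed from these same libraries, accounted for 977 CPM of the sum with DMSO and 1474 CPM under BAY-850, while the other 12 summed to 1456 and 1380 CPM, with ranges of 1446 to 1464 and 1358 to 1400 CPM that did not overlap. The genes whose symbol ends in 2 summed to 593 ± 9.05 CPM and 576 ± 18.8 CPM in SK-OV-3, with overlap. Per kilobase, cytosolic transcripts outnumbered those of the other class by 3.81 ± 0.083 to 1 in SK-OV-3 with DMSO and 4.57 ± 0.079 to 1 with BAY-850, and by 8.99 ± 0.179 and 9.01 ± 0.0759 to 1 in PA-1.

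Promoter windows were searched for TGATGNAAN, the C/EBP-ATF response element that ATF4 and its partners are known to bind, on both strands of the bases from 250 before to 50 after each RefSeq transcript start. The letters were found in 3.61% of 35116 windows, belonging to 4.45% of 27305 genes. Of the synthetase genes 30 had a window, and 8 of these held a match, 7 of 16 cytosolic genes and 1 of 14 genes whose symbol ends in 2 (YARS2). Of the 8 genes that rose in SK-OV-3, 7 had a window and 5 held a match (AARS, CARS, GARS, MARS and TARS), while SARS and WARS did not. Of the 12 other cytosolic genes 9 had a window, of which IARS and NARS held a match. The narrower TGATGCAAN, added after the first search and overlapping with it, occurs in 0.866% of windows and was the form in AARS, CARS, IARS, MARS, NARS and TARS. The excerpts below, of 56 to 90 bases of these windows, are RefSeq sequence of GRCh38.p14, shown 5′ to 3′ on the strand of the gene, with the match in capitals, which reads as the reverse complement of the motif in all but NARS.
AARS, chr16:70289646-70289734, minus strand: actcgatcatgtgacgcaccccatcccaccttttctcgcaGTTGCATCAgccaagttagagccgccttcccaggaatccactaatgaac
CARS, chr11:3057394-3057466, minus strand: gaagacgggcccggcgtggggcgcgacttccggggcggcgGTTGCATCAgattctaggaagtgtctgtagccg
GARS, chr7:30594804-30594892, plus strand: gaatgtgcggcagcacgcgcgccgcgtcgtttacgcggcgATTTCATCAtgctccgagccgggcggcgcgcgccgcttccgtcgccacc
MARS, chr12:57488023-57488097, plus strand: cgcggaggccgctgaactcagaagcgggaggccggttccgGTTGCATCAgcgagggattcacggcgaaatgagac
TARS, chr5:33440926-33440994, plus strand: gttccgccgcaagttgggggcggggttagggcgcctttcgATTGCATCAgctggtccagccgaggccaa
IARS, chr9:92293668-92293751, minus strand: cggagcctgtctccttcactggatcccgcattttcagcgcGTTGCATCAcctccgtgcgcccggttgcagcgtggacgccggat
NARS, chr18:57621807-57621862, minus strand: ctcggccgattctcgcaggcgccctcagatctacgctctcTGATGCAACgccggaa
SARS, chr1:109213833-109213922, plus strand: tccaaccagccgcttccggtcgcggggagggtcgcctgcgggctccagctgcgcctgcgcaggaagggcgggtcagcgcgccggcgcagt

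AARS, CARS, GARS, MARS and TARS are shown because they rose in SK-OV-3 and held the letters, IARS and NARS because they held them without passing the test, and SARS because it rose without a match. The search of SARS covered both of its windows whole, of which 90 bases of 1 are shown. The first base of the match lay at offsets of -188 for AARS, -34 for GARS, -14 for IARS, -5 for MARS, -3 for CARS, 1 for TARS and 14 for NARS from the RefSeq start. In AARS the match therefore lay farther from the start than in the other 6 genes. A match of letters is not a measurement of binding.

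Other genes of tRNA charging and of amino acid supply were read from lists that were chosen with earlier results of these data known. Of 8 cytosolic partners (AIMP1, AIMP2, EEF1E1, AARSD1, PPA1, DTD1, SEPSECS and PSTK), 0 passed edgeR's test in either line, with 4 at an unadjusted p under 0.05 in PA-1 and 2 in SK-OV-3. Among all genes tested, 3618 of 15212 in PA-1 and 5116 of 15348 in SK-OV-3 had such an edgeR p. DESeq2 called AIMP1 and PPA1 lower in PA-1 and EEF1E1 higher in SK-OV-3, and limma-voom called 0. The difference between the lines passed edgeR's interaction test for EEF1E1 (0.36, adjusted p = 0.0292), against 6.70% of all genes tested with a positive difference. Of 11 mitochondrial partners, only PPA2, a mitochondrial pyrophosphatase, passed edgeR's test for treatment. It fell by 0.28 (log2) in PA-1 (edgeR adjusted p = 0.031) and fell by 0.35 in SK-OV-3 (0.0025). Among all genes tested, 2.48% fell in PA-1 and 9.56% in SK-OV-3 by the same test. Of 5 cytosolic elongation factors, EEF1B2 fell by 0.31 in SK-OV-3 (edgeR adjusted p = 0.0094) and none passed in PA-1, where 2 had an unadjusted p under 0.05 and DESeq2 and limma-voom called 0. Of these 5, EEF2 passed the interaction test (-0.21, edgeR adjusted p = 0.0482), against 7.77% of all genes tested with a negative difference.

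Among 8 amino acid response genes, a list also chosen with earlier results of these data known, 6 rose and 1 fell in SK-OV-3. The shares over all genes tested were 10.8% and 9.56%. In PA-1 0 rose and 1 fell by the same edgeR test, against 4.65% and 2.48%. There 4 of the 8 had an unadjusted edgeR p under 0.05, against 3618 of all 15212 genes tested. DESeq2 called 0 higher and 3 lower in PA-1 (ATF3, ATF4 and DDIT3), and limma-voom 0 higher and 1 lower (DDIT3). The difference between the lines passed edgeR's interaction test for the same 7 genes that passed in SK-OV-3. CHAC1, a glutathione-degrading enzyme, measured 2.41, 1.51 and 2.13 CPM with DMSO and 14.2, 14.0 and 9.07 CPM under BAY-850 in SK-OV-3. ASNS, asparagine synthetase, measured 17.4, 16.5 and 15.1 CPM with DMSO and 38.8, 40.4 and 45.2 CPM under BAY-850 there. Neither gene's groups overlapped, and the log2 fold changes were 2.63 ± 0.23 and 1.36 ± 0.10 (SE, edgeR adjusted p = 1.5e-05 and 3.28e-06). TRIB3 (1.58), DDIT3 (1.19), SESN2 (0.59) and ATF4 itself (0.45) also rose, ATF5 fell by 0.38, and ATF3 did not pass the test (-0.13). DDIT3, which encodes the stress factor CHOP, was the gene that fell in PA-1, by a log2 change of -0.38 (edgeR adjusted p = 0.00196). With DMSO, 7 of these 8 genes were lower in SK-OV-3 than in PA-1, as 40.2% of all genes tested were, ASNS by a log2 difference of -6.40 and CHAC1 by -5.15. In promoter windows of the kind searched above, TGATGNAAN was found for ASNS, CHAC1 and ATF3, and not for ATF4, ATF5, DDIT3, TRIB3 or SESN2. The part of the response of these genes in the levels of the synthetases was not tested.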

How the data were processed

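RNA was measured in 12 libraries, 3 in each of 4 groups. Per the labels, mRNA was purified with oligo-dT beads and made into strand-specific libraries, although the series' design text names ribosomal RNA depletion, and ribosomal RNA genes took 7.94% to 16.9% of counts. The deposited table, made by the authors, holds expected counts for each gene symbol, without normalization between libraries. The submitters' processing notes name RSEM 1.2.15, Bowtie2 2.1.0 and the hg38 build. RSEM divides reads that match several genes, so 8.94% to 12.4% of values were not whole and counts of overlapping or similar genes are estimates. Values were rounded.

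edgeR 4.0.16 in R 4.3.3 was used with TMM factors, its filter on low counts, the quasi-likelihood test and Benjamini-Hochberg adjustment over all genes tested (15212 in PA-1, 15348 in SK-OV-3, 16830 for the interaction and 16070 for the lines with DMSO), at a threshold of 0.05. The study's methods name no model for fold changes, and no replicate term was used. The SE is the log2 fold change divided by the square root of F. Replicates differed by more than counting noise in every pair. What separates them beyond the word biological is not given, so p-values measure the spread between these libraries.

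The members and the lists were chosen with earlier results of these data known. Values per library are given for genes past the threshold in a treatment comparison (at most 8 per line and class) or for the interaction (at most 8), and levels for the highest and lowest gene of each class, with the rest named by count and range. IARS, NARS and KARS are given per library as genes picked after their values were seen. Transcript lengths and GC contents came from GENCODE v29 (GRCh38), where all 37 members matched. In simulated counts every gene was given the common spread of its fit. The changed genes were drawn only from genes above a floor on the mean count. With a log2 change of 0.5, the test then found 81% of changed genes in PA-1, 30% in SK-OV-3 and 8% for the interaction. These shares hold for that common spread and not for the spread of single synthetase genes. Alternatives were DESeq2 1.42.0, limma-voom (limma 3.58.1), RLE factors, library size only, other filters, a GC trend removed (loess span 0.5), ribosomal RNA genes removed, all 12 libraries in one fit, the replicate block, other classes for TARSL2, GARS and KARS, and leaving out each library. Added after seeing the data were the GC trend for the interaction, the multisynthetase complex split and the narrower motif.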

Additional observations from a re-analysis of the deposited data

Results flagged for a closer look

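The response to BAY-850 differed between the lines, by the interaction term of edgeR fitted over all 12 libraries, for 10 synthetase genes. The values are the log2 fold change in SK-OV-3 minus that in PA-1. Charging genes with a larger response in SK-OV-3 were CARS (1.0937), AARS (0.9735), SARS (0.7027), PARS2 (0.672), GARS (0.6077), TARS (0.5983), YARS (0.5184), MARS (0.2842) and WARS (0.2438). The valyl gene VARS differed the other way (-0.492). With 3 libraries per group, no test for an outlying library was applied to the values of single genes, and SK-OV-3 with BAY-850 replicate 3 was set apart by its number of detected genes.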

How the results depend on the processing

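No gene called in the reported fit changed direction in any alternative that was run. Among the genes that were not called, the log2 fold change changed sign in at least 1 alternative for 12 of 35 in PA-1, 7 of 25 in SK-OV-3 and 4 of 27 for the interaction. The PA-1 medians, reported as 0.014 (cytosolic) and -0.0046 (symbol ends in 2), also changed sign, the second to 0.0095 with TARSL2 counted as cytosolic. The 8 cytosolic genes called higher in SK-OV-3 were called in all 18 settings, and 7 of the 8 called higher for the interaction, all but WARS, in all 21. IARS was a ninth higher call in SK-OV-3 with DESeq2 and with the GC trend removed, and DESeq2 called 3 lower, KARS being added. For treatment and for the interaction, no call in the class whose symbol ends in 2, and none of a lower gene, held in every setting. These calls did not all rest on small changes. In SK-OV-3 the log2 fold change was 0.51 ± 0.16 (SE) for PARS2 and 0.42 ± 0.05 for MARS. Of the values compared with the reported ones, 293 class counts and medians stayed within their limits and 75 moved. Of the values for single genes, 362 kept their side of the threshold and 76 lost it. Where nothing else is said, the cause was not tested.

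In PA-1, DESeq2 called 2 cytosolic genes higher and 2 lower, the fit with the GC trend removed called 1 higher and that with no filter 3 higher. There VARS2 and NARS2 were lost, giving 0 higher and 0 lower, with the GC trend removed, with all 12 libraries in one fit, with library size only, and with the replicate block with or without the GC trend. Library size only moved the PA-1 medians to -0.024 (cytosolic) and -0.040 (symbol ends in 2). In SK-OV-3 the class whose symbol ends in 2 had 0 higher calls with RLE factors and with library size only, 1 with all 12 libraries in one fit, with at least 10 counts in every library, with limma-voom and with no filter, and 2 lower calls with the GC trend removed and 1 with all 12 libraries. Library size only left 1 cytosolic gene lower in SK-OV-3. With the GC trend removed the cytosolic median there was 0.081. For the interaction, cytosolic genes called lower were 2 with DESeq2 and 0 with library size only. In the class whose symbol ends in 2, DESeq2 called 2 higher and 1 lower, at least 10 counts in every library gave 2 higher, and no filter gave 0.

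Same-numbered libraries did not deviate together (correlations from -0.042 to 0.042). Deviations from means of 3 libraries are tied to each other, so this check cannot settle whether the replicate numbers mark pairs. What same-numbered libraries share is not given. With the replicate block, SK-OV-3 kept 8 higher and 2 lower cytosolic calls and had 0 higher calls in the class whose symbol ends in 2, PA-1 had 0 calls in both classes, and the interaction had 7 higher and 2 lower cytosolic calls and 0 higher in the other class. The replicate block together with the GC trend removed gave 0 higher and 1 lower call in that class in SK-OV-3 and a cytosolic median of 0.081.

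Leaving out 1 library at a time, SK-OV-3 had 8 cytosolic genes higher throughout, 0 to 4 lower and a median from 0.044 to 0.081, and 0 to 2 higher and 0 lower calls in the other class, with a median from -0.10 to -0.018. PA-1 had 0 to 3 cytosolic genes higher, 0 to 1 lower and a median from -0.003 to 0.017, and 0 to 1 higher and 0 lower calls in the other class, with a median from -0.030 to 0.019. NARS2 lost its call without any of the 6 PA-1 libraries. The interaction had 7 to 8 higher and 0 to 2 lower cytosolic calls and 0 to 2 higher and 0 lower calls in the other class, and the lines with DMSO had 3 to 4 higher and 14 lower cytosolic calls and 5 higher and 9 to 10 lower in the other class. Depth limits the precision of low genes such as PARS2, at 4.44 to 7.48 CPM in SK-OV-3.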
